A study of Arabidopsis thaliana with 12 samples.

Results

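DNA methylation was surveyed in Arabidopsis thaliana (ecotype labelled Col-O, wild type), in tissue labelled as leaf that the study's methods describe as whole plants without roots, by enzymatic methyl-seq, in which unmethylated cytosines are converted by enzymes and a cytosine that is still read as C counts as methylated. The 12 labelled libraries comprised 4 from plants treated with SA-CNPs (salicylic acid loaded in chitosan nanoparticles), 4 from plants inoculated with the pathogen (the powdery mildew fungus P. xanthii) and 4 from untreated control plants, with 2 plant samples per group. No mutation or transgene is labelled in any group. The CpG data analysed here were 1 pooled table of methylated and unmethylated reads per cytosine, and its libraries are not named in the sources used here. Treatments were therefore not compared, no replicate error could be given, and every value below describes this pool. The leaf label could not be checked against marker genes, since no transcripts were measured.

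The regions described here were the CpG-dense windows of the nuclear genome. The 5 nuclear chromosomes were divided into windows of 500 bp from position 1, and a window was called CpG-dense where the table listed at least 40 CpG cytosines over both strands and at least 50% of them were covered. Windows that touched chromosome 2 from 1 to 10000 bp or chromosome 3 from 14193000 to 14205000 bp, where the annotated ribosomal RNA genes lie, were left out. Of 26846 windows with 40 or more listed cytosines, 41 lay in these stretches and 600 were covered at less than 50% of their cytosines, which left 26205 CpG-dense windows. They made up 11.3% of the 232038 windows compared and held 24.8% of the cytosines listed in them. The median number of listed cytosines was 48 in CpG-dense windows and 20 in the 205833 other windows, which had at least 4 cytosines and the same coverage. In 25741 of the CpG-dense windows every listed cytosine was covered, and the lowest number of reads at a covered cytosine was 5.

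CpG methylation in plants is copied to the new strand after replication by the maintenance methyltransferase MET1, because the CpG site reads the same on both strands. Transposons and their remnants are as a rule densely methylated and silent. Many expressed genes carry CpG methylation in the body alone, while their ends, where transcription starts and stops, stay free of it.

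The densest stretches show what such a window looks like, and each is given with the cytosines and the neighbouring base that the table reports. The table holds only CpG sites and the base next to each, so every base it does not give is printed as n, and CpG sites are in capitals. All stretches are 150 bases of the plus strand of TAIR10.1, chosen as the part of the densest window of a class with most CpG cytosines, with WAVH2 added as the densest unmethylated window in a protein-coding gene.
AT4G19270, protein-coding gene, chr4:10537639-10537788: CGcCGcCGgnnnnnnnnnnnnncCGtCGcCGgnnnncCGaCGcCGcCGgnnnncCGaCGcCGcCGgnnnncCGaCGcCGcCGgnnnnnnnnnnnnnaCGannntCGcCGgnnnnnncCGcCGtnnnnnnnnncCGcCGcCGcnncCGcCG
WAVH2, protein-coding gene, chr5:26262628-26262777: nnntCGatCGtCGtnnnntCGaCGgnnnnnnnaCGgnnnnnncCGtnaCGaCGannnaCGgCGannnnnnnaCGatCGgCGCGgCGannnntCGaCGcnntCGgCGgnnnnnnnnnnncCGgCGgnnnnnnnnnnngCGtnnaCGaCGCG
AT2G15410, pseudogene, chr2:6718227-6718376: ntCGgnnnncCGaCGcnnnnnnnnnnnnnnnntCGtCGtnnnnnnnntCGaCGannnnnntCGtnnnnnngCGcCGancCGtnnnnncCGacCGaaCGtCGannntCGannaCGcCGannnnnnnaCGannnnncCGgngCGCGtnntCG
AT4G06975, long noncoding RNA gene, chr4:11209030-11209179: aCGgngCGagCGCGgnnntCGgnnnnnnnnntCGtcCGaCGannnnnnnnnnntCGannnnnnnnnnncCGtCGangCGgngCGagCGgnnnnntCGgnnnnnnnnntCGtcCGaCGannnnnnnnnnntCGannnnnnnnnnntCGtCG
intergenic, chr1:7985841-7985990: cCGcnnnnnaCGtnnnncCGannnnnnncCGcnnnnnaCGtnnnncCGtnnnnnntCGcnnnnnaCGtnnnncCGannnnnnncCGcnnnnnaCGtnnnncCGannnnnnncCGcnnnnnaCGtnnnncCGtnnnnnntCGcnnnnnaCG

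In these 150 bases the stretch of AT4G19270 held 56 CpG cytosines with a level of 87.3%, where the level is the share of methylated calls among all calls. The stretch of WAVH2 held 52 cytosines with a level of 0.111%, so that a similar density went with the opposite state. The stretches of AT2G15410 and AT4G06975 stood at 90.4 and 94.1%, and the intergenic one at 88.8%.

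Over all CpG-dense windows, 17281594 of 72732206 calls were methylated, a level of 23.8% (95% Wilson interval 23.75 to 23.77%), against 26.8% (26.75 to 26.76%) in the other windows. These intervals cover counting error only and treat the calls of a read as independent. Without 29 CpG-dense windows read at more than 2 times the nuclear median of 58 reads per cytosine, the level was 22.3%. The 2 levels hide a split, because a CpG-dense window was as a rule either almost free of methylation or almost fully methylated. The median window stood at 0.543%, with quartiles of 0.165 and 81.6%, against a median of 1.06% and quartiles of 0.247 and 61.8% in the other windows. In 18223 CpG-dense windows (69.5%) the level was under 25%, beside 63.1% of all windows compared, and in 6769 (25.8%) it was 75% or more, beside 21.0% of all. Only 1213 (4.63%) lay between 25 and 75%, beside 15.9% of all. Below 1% lay 15887 CpG-dense windows (60.6%, beside 50.7% of all). Not a single methylated call was found in 974 of the 26205 CpG-dense windows and in 18249 of the 205833 other windows. That share was thus the lower one in CpG-dense windows, which hold more cytosines each. The windows just inside and just outside the limit were alike in this: of those with 40 or 41 cytosines 24.9% stood at 75% or more, and of those with 38 or 39 it was 24.8%.

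Gene class separated these states. Each window was given the class that held most of its bases. Of the CpG-dense windows, 18006 lay in protein-coding genes, 3875 in pseudogenes (the class under which RefSeq lists transposon genes), 255 in other RNA genes, 3154 within 1000 bp of a gene and 915 in intergenic DNA. Protein-coding genes thus took 68.7% of the CpG-dense windows and 53.9% of the other windows, and pseudogenes 14.8 and 7.76%. By contrast, stretches beside genes took 12.04% of the CpG-dense windows and 25.9% of the others, and intergenic DNA 3.49 and 11.3%.

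In protein-coding genes the CpG-dense windows were nearly free of methylation, with a level of 5.88% and a median of 0.327%, against 19.8% and 0.883% in the other windows of this class. Only 693 of the 18006 windows (3.85%) reached 75%, against 6.62% of the other windows. Partly methylated windows were fewer, with 4.95% of CpG-dense windows between 25 and 75%, against 25.2% of the other windows. Windows below 1% made up 79.7% of the CpG-dense windows and 51.3% of the others. The difference in level was -13.9 percentage points over the whole genome and -13.8 on the chromosome arms.

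Pseudogenes showed the reverse. Their CpG-dense windows had a level of 80.03% and a median of 90.3% (quartiles 88.1 and 91.7%), against 75.2% and a median of 87.2% (quartiles 83.4 and 89.6%) in the other windows of pseudogenes. At 75% or more lay 3470 of the 3875 CpG-dense windows (89.5%), against 85.7% of the others. A minority in both sets had little methylation. Under 25% lay 352 CpG-dense windows (9.08%), against 10.9% of the others, and below 1% lay 271 (6.99%), against 7.80%.

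Outside genes the CpG-dense windows were far more methylated than the other windows, although the gap was smaller at like depth, as given with the depths. Within 1000 bp of a gene the level was 56.2% in CpG-dense windows and 24.0% in others, with medians of 87.7 and 0.623%. Of the 3154 CpG-dense windows there, 1868 (59.2%) were at 75% or more, against 22.8% of the others, and 1095 (34.7%) under 25%, against 68.4%. On the arms, which held 1908 of these CpG-dense windows, their median was 1.24%, against 0.464% in others, and their level 37.6%, against 14.7%. In intergenic DNA it was 74.0 and 38.1%, with medians of 89.1 and 5.44%. Without the windows of excess depth, 12 of which were intergenic, the intergenic level was 67.8%. The 255 CpG-dense windows in other RNA genes had a level of 21.9%, against 14.5% in the other windows of that class, and medians that were close (0.535 and 0.467%). Of these windows, 142 lay in genes for long noncoding RNAs, with a level of 21.1%, and 53 in genes annotated as ncRNA, with 18.2%.

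**Figure D1:**
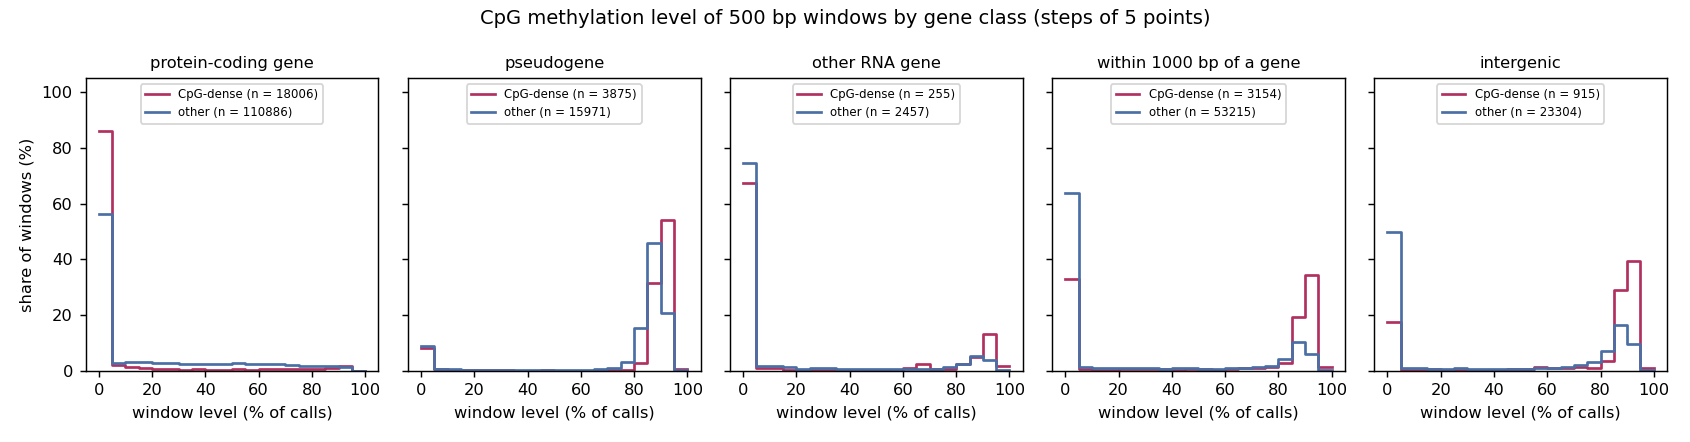
Share of windows (vertical axis, percent) at each CpG methylation level (horizontal axis, percent of calls, in steps of 5 points) for CpG-dense windows (red) and other windows (blue) in 5 gene classes. CpG-dense windows pile up at the unmethylated end in protein-coding genes (median 0.327%) and at the methylated end in pseudogenes (median 90.3%) and in intergenic DNA, while beside genes they form a peak at either end, with 34.7% of windows under 25% and 59.2% at 75% or more.

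The place on the chromosome was considered next, since pseudogenes gather around the centromeres. The chromosomes were cut into 240 bins of 500 kb, and 35 bins in which pseudogene bases outnumbered protein-coding bases were set apart as pseudogene-rich. In these bins CpG-dense windows stood at 82.6%, against 75.1% in other windows. On the arms, which held 21382 of the CpG-dense windows, the level was 11.7%, against 19.2% in other windows. Dense windows in pseudogenes had a level of 65.2% on the arms and 87.9% in the pseudogene-rich bins, against 60.1 and 84.5% in the other windows of pseudogenes. Dense windows of protein-coding genes stood at 5.08% on the arms, against 18.9% in others, and at 41.4% in the pseudogene-rich bins, against 48.6%. Within each of the 5 classes, CpG-dense and other windows thus kept the order of their levels on the arms and in the pseudogene-rich bins. The gap in other RNA genes of those bins was only 0.615 points, however. The share of windows at 75% or more did not keep its order in protein-coding genes. It was 2.74% in CpG-dense windows and 5.90% in others on the arms, but 45.6 and 35.0% in the pseudogene-rich bins. In those bins partly methylated windows made up 6.85% of the CpG-dense windows of protein-coding genes, against 26.2% of the others. By chromosome, the level of CpG-dense windows ran between 16.3% on chromosome 1 and 30.3% on chromosome 2.

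The steps of CpG density showed that the limit of 40 cytosines marks no break. In protein-coding genes the level was 12.1% at 4 to 9 cytosines, 21.3% at 10 to 19, 22.1% at 20 to 29, 15.2% at 30 to 39, 8.29% at 40 to 49, 4.83% at 50 to 59 and 3.41% at 60 or more. The share of partly methylated windows in these genes was 27.9% at 20 to 29 cytosines, and 7.72, 3.16 and 0.818% in the 3 steps from 40 up. In pseudogenes the median was higher with each step, with 84.6% at 4 to 9 cytosines, 87.6% at 20 to 29, 89.7% at 40 to 49 and 91.1% at 60 or more, but the level was not, with 78.2, 74.2, 77.4 and 83.3% in these steps. Within 1000 bp of a gene the level was 22.3% at 20 to 29 cytosines and 78.2% at 60 or more, and in intergenic DNA 35.8 and 82.6%. At 60 or more cytosines, only 54 of 5682 windows of all classes (0.95%) were between 25 and 75%.

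**Figure D2:**
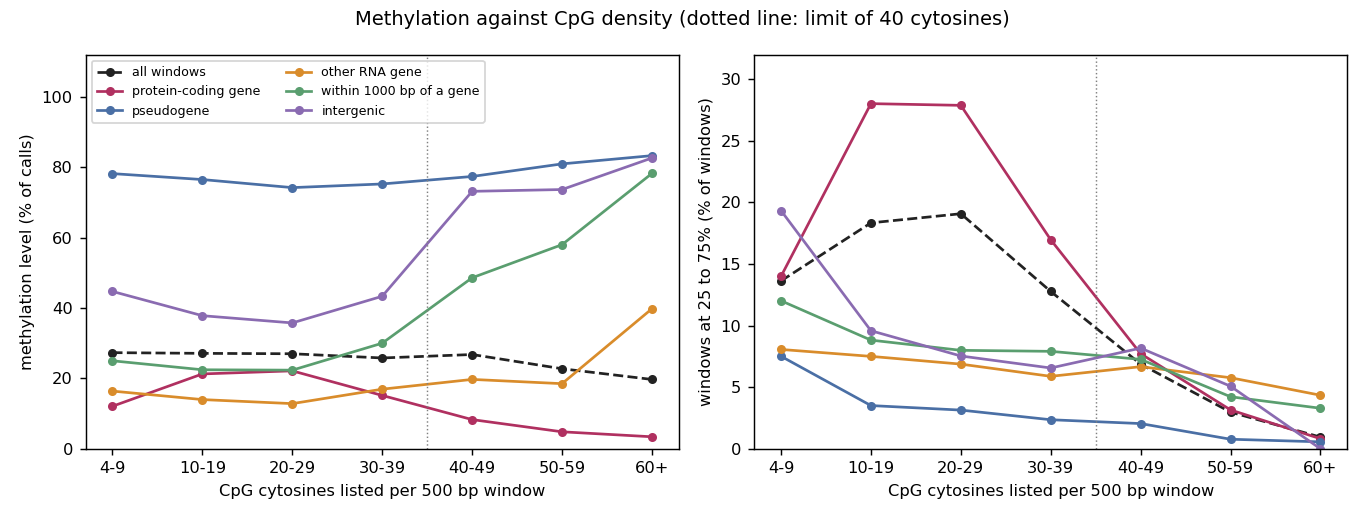
Methylation level (left, percent of calls) and share of windows at 25 to 75% (right, percent of windows) against the number of CpG cytosines listed per 500 bp window, for all windows (dashed) and for 5 gene classes, with the limit of 40 cytosines dotted. The level of protein-coding genes is 3.41% at 60 or more cytosines, while the levels beside genes and in intergenic DNA are 78.2 and 82.6% there. Partly methylated windows there make up 0.818% in protein-coding genes, 0.562% in pseudogenes, 3.29% beside genes and 0% in intergenic DNA. In other RNA genes their share is 6.87% at 20 to 29 cytosines and 6.67% at 40 to 49. It is 4.35% (1 of 23 windows) at 60 or more.

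Read depth moved with both density and level. The median depth per covered cytosine was 53.5 reads in CpG-dense windows, against 60.2 in other windows. Among CpG-dense windows it was 45.0 at a level of 75% or more and 55.9 under 25%, and in pseudogenes it was 44.9, against 53.2 in other windows of pseudogenes. Windows were therefore also compared at like depth, a comparison chosen after the data had been seen. Between 40 and 50 reads the CpG-dense windows of protein-coding genes stood at 10.8%, against 23.8% in others, and from 50 to 60 reads at 4.72%, against 23.3%. Between 30 and 40 reads, where only 437 such windows lay, they stood at 30.9%, against 18.5%. The level of CpG-dense windows in pseudogenes was higher at 30 to 40 reads (90.4%, against 85.4%) and at 40 to 50 reads (87.9%, against 85.7%) but lower at 50 to 60 reads (66.1%, against 77.1%). Their median was the higher one in all 3 bands, with 90.9, 90.5 and 89.2%, against 88.2, 88.1 and 87.2%. On the arms at 50 to 60 reads the median too was lower, with 24.8% in 329 CpG-dense windows, against 85.9% in others. Beside genes the CpG-dense windows had the higher level in all 3 bands, by 25.9, 24.9 and 9.77 points, and in intergenic DNA by 13.1, 15.7 and 15.6 points. At 50 to 60 reads these gaps were thus smaller than over all depths (32.2 and 35.9 points). On the arms alone the gap beside genes was 34.9, 27.0 and 5.08 points in the 3 bands, against 22.9 points over all depths. In intergenic DNA of the arms it was 27.2, 28.0 and 11.2 points, against 27.0 points. The direction turned with depth in protein-coding genes and in pseudogenes, and in other RNA genes the difference was -0.0562 points at 50 to 60 reads. What part depth has in these differences was not tested further.

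Within protein-coding genes, distance to the gene end was taken into account, because the body and the ends of a gene differ in methylation. The annotation used here gives no strand, so the start and the end of transcription were not told apart. Of the CpG-dense windows, 4549 had their centre within 250 bp of the nearer end, 5899 at 250 to 500 bp and 5460 at 500 to 1000 bp. At every distance their level was below that of the other windows. It was 4.52%, against 7.30%, within 250 bp of an end, 3.54%, against 9.95%, at 250 to 500 bp, 6.45%, against 16.8%, at 500 to 1000 bp, 12.1%, against 28.9%, at 1000 to 1500 bp and 30.1%, against 48.1%, at 2000 bp or more. The medians at 1000 to 1500 bp were 0.517% in 1365 CpG-dense windows and 20.3% in 19154 others. Partly methylated windows made up 11.9% of the CpG-dense windows at that distance, against 38.9% of the others. At 2000 bp or more, 160 CpG-dense windows remained, and 24.4% of them were at 75% or more, against 19.6% of the others.

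**Figure D3:**
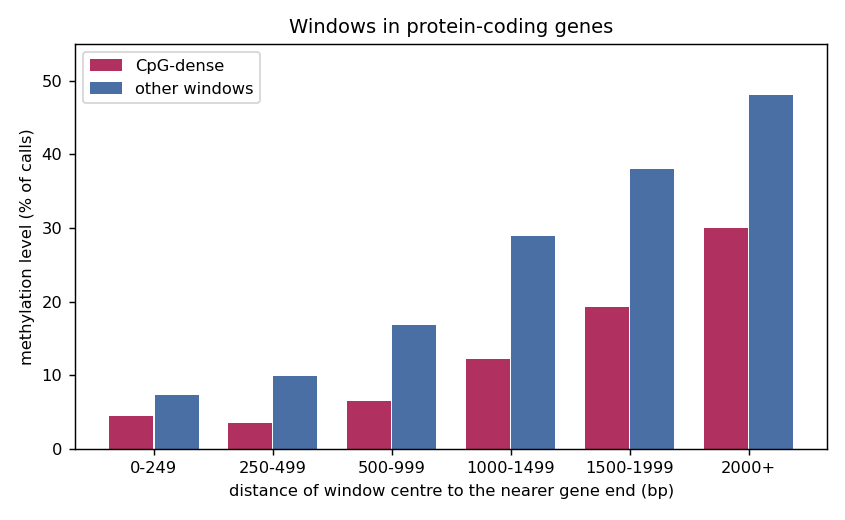
Methylation level (vertical axis, percent of calls) of CpG-dense windows (red) and other windows (blue) in protein-coding genes, by the distance of the window centre to the nearer gene end (horizontal axis, bp). From 500 bp on both levels are higher with each step into the gene, and the CpG-dense windows are lower at each distance, with 30.1%, against 48.1%, at 2000 bp or more.

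The surroundings of a window were read from the 10 windows on either side. Methylated CpG-dense windows of pseudogenes (75% or more) lay in long methylated stretches, with 89.2 and 89.3% in the adjoining windows and 76.9 and 77.8% at a distance of 5 kb. Around other methylated windows of pseudogenes the level at 5 kb was 70.4 and 71.3%. In protein-coding genes the methylated CpG-dense windows stood out more from their surroundings, with 71.4 and 71.6% in the adjoining windows and 49.3 and 43.7% at 5 kb, against 28.6 and 28.3% at 5 kb from other methylated windows. Unmethylated CpG-dense windows of protein-coding genes (under 25%) had 3.77 and 3.803% in the adjoining windows, against 9.53 and 9.48% beside other unmethylated windows, and 16.2 and 14.0% at 5 kb. The wider surroundings of these unmethylated windows were thus close to those of other unmethylated windows (15.2% at 5 kb on either side).

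**Figure D4:**
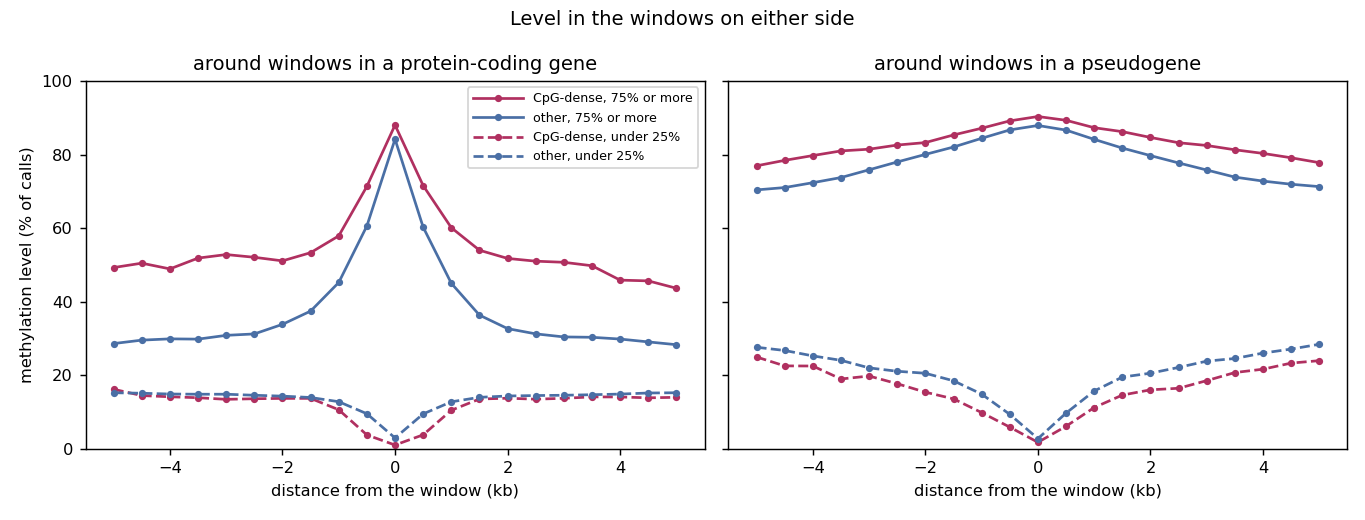
Methylation level (vertical axis, percent of calls) in windows up to 5 kb on either side (horizontal axis, kb) of CpG-dense windows (red) and other windows (blue) at 75% or more (solid) or under 25% (dashed), in protein-coding genes (left) and pseudogenes (right). In pseudogenes the methylated state extends over several kb, whereas in protein-coding genes the level is 71.4% one window before and 71.6% one window after a methylated CpG-dense window, and at 5 kb it is 49.3 and 43.7%.

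CpG-dense windows adjoined each other in 4686 runs, while 13543 (51.7%) had no dense neighbour. Of 271 runs of 5 or more windows, 191 had a level of 75% or more, 73 were under 25% and 7 lay between. Among all CpG-dense windows, 25.8% were at 75% or more and 69.5% under 25%. Of the 4686 runs, 3244 of which had 2 windows, 94 held both a window under 25% and one at 75% or more. The longest run covered 35 windows on chromosome 3 from 15030501 to 15048000, a length of 17500 bp, with 2088 CpG cytosines and a level of 91.1%. It contains the pseudogenes AT3G42993, AT3G42996 and AT3G43000 and a portion of the protein-coding gene AT3G42990. The other 4 of the 5 longest runs had 30, 28, 27 and 26 windows, of which 3 lay on chromosome 4 and 1 on chromosome 2, with levels of 90.1, 91.0, 91.0 and 89.6%. All 5 hold at least 1 pseudogene, and none of their windows was above 94.8%.

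The cytosines inside the windows were split in the same way. Among covered cytosines of CpG-dense windows, 71.2% had a level under 25%, 26.6% one of 75% or more and 2.16% one in between, against 67.9, 28.0 and 4.10% in other windows. Of the 1213 partly methylated CpG-dense windows, 870 (71.7%) held at least 20% of their cytosines in each of the 2 extreme states, against 83.2% of the other partly methylated windows. Most cytosines were themselves at 25 to 75% in 79 (6.51%) of them, against 6.20% of the others. Both strands of a CpG site had the same state almost throughout. Of 675391 CpG sites of CpG-dense windows with both strands covered, 71.3% were under 25% on both strands and 25.8% at 75% or more on both, and 7 sites were at 75% or more on one strand and under 25% on the other. In other windows these were 67.8%, 26.8% and 26 of 2046302 sites.

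The bases next to the CpG site differed between CpG-dense and other windows. Neighbouring CpG sites were a median of 12 bp apart in CpG-dense windows and 26 bp in others, and 10.4% of the gaps, against 3.69%, were exactly 3 bp. Sites of the form cCGc or its complement made up 9.61% of the sites, against 6.91% in other windows, and sites of the form aCGt 6.003%, against 8.97%. The level depended on these bases also where the window state was fixed. In pseudogene windows at 75% or more, aCGt sites stood at 82.9% in CpG-dense windows and 80.8% in others, while cCGg sites stood at 92.7 and 91.0%. Each of the 10 forms had a higher level in the methylated CpG-dense windows of pseudogenes than in the other methylated windows of pseudogenes. In protein-coding windows under 25%, aCGt sites stood at 0.576% in CpG-dense windows and 1.04% in others, and cCGc sites at 1.497 and 4.51%. These levels come from the same pooled libraries and are given as a description.

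Among single windows, the densest lay in the protein-coding gene AT4G19270 (chromosome 4, 10537501 to 10538000). All of its 152 listed cytosines were covered, and 3181 of 3524 calls were methylated (90.3%, interval 89.2 to 91.2%), at a depth of 23.2 reads. The next 2 protein-coding windows were in the opposite state. In WAVH2 (AT5G65683, chromosome 5, 26262501 to 26263000), a gene of the WAVY GROWTH family of ubiquitin ligases, 12 of 6816 calls at 129 cytosines were methylated (0.176%, interval 0.101 to 0.307%). In RUP2 (AT5G23730, chromosome 5, 8005501 to 8006000), which restrains the UV-B receptor UVR8, it was 18 of 5672 calls at 124 cytosines (0.317%).

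The 3 densest windows of pseudogenes were methylated. AT2G15410 (chromosome 2, 6718001 to 6718500) had 110 cytosines and a level of 92.4%, AT5G31719 had 102 with 90.8% and AT5G29975 had 101 with 92.3%. In AT5G31719 63 of the 102 cytosines were covered, and in AT5G29975 75 of the 101. Of other RNA genes, AT4G06975 (chromosome 4, 11209001 to 11209500) had 120 cytosines at 93.4%, and the adjoining window, from 11208501 to 11209000, had 124 at 74.4%. On chromosome 3 a window of the RNA gene AT3G00210 (1962501 to 1963000) stood at 36.1% with 107 cytosines, 44 of them under 25% and 58 at 75% or more. The next window (1963001 to 1963500), beside the gene, stood at 93.5% with 129. The densest 3 intergenic windows had 94, 94 and 92 cytosines and levels of 88.9, 90.3 and 92.6%. A window beside a left-out stretch on chromosome 3 (14192001 to 14192500) held 120 cytosines at 3.32%, at a depth of 186 reads.

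Genes were then counted by the CpG-dense windows they hold, where a window counts for a gene that covers at least 250 of its bases. Of 27053 protein-coding genes that hold any window, 12720 (47.0%) held a CpG-dense one, and 3748 held at least 2. In 11712 of the 12720 genes the CpG-dense windows together were under 25%, in 648 between 25 and 75% and in 360 (2.83%) at 75% or more, with a median of 0.352% over genes. Of 1695 pseudogenes with a CpG-dense window, 1430 (84.4%) were at 75% or more, with a median of 89.7%. Genes with a CpG-dense window were longer, with a median length of 2242 bp, against 2097 bp over all protein-coding genes that hold a window.

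The protein-coding genes with the most CpG-dense windows were mostly methylated along their length. AT5G39770 (chromosome 5, 15919241 to 15927549) held 10, with levels of 88.4 to 93.1% and 90.9% in all. AT1G20400, AT5G38190 and AT3G29796 held 8 each, with 91.7, 92.2 and 92.1%. ABCB9 (AT4G18050, chromosome 4, 10021786 to 10027425), a transporter of the P-glycoprotein family, held 9 and differed from these. Its windows ran between 0.0709 and 64.8%, with 4 of the 9 below 1%, and 11.03% in all. The most methylated one, from 10024001 to 10024500, had 30 of its 42 cytosines at 75% or more and 8 under 25%. The next on its higher side stood at 2.03% and the next on its lower side at 11.4%.

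Among protein-coding genes with at least 2 CpG-dense windows, the highest levels were 94.2% in AT4G00953, 94.1% in AT5G27893 and 93.3% in MEE38 (AT3G43160, chromosome 3, 15166561 to 15168225). The 3 windows of MEE38, a gene named for the arrest of embryos in its mutant, had 104, 70 and 58 cytosines and levels of 93.8, 93.2 and 92.6%. At the other end, GulLO3 (AT5G11540), of the gulonolactone oxidase family, had 0 methylated of 8559 calls, which allows a level of up to 0.0351%. PME5 (AT5G47500), a pectin methylesterase of the cell wall, had 0 of 6345 (up to 0.0473%), and AT3G62630 had 0 of 5066 (up to 0.0592%). Pseudogenes with the most CpG-dense windows were AT5G32690 with 25 of its 117 windows and a level of 88.0%, and AT2G01029 with all 20 of its windows and 89.3%. AT3G29615, AT5G29075 and AT3G31945 had 16, 15 and 13, with 91.0, 89.7 and 91.8%.

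Genes of salicylic acid defence were examined because the study applied this hormone, which plants make in response to biotrophic pathogens. Of 23 genes, 19 held a CpG-dense window (82.6%, beside 47.0% of protein-coding genes that hold any window), and all 19 were under 25%, beside 92.1% of all protein-coding genes with a CpG-dense window. The genes of this list are long, with a median length of 3097 bp, and 27.8% of their windows were CpG-dense, against 13.8% for all protein-coding genes. Their median was 0.316%, beside 0.352% over all protein-coding genes with a CpG-dense window. ALD1, EDS1, NPR4 and PBS3 held none. The list also holds SKP1A, which the paper describes as influencing the salicylic acid pathway without acting directly in it.

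In the synthesis of salicylic acid, ICS1 (AT1G74710, EDS16 in RefSeq), the isochorismate synthase, had 1 methylated of 2588 calls in its CpG-dense window (0.0386%). Its paralogue ICS2 stood at 0.213%, and EPS1, which completes the route, at 0.350%. EDS5, which exports isochorismate from the chloroplast, had 0 of 1800 calls, which allows up to 0.167%. The phenylalanine ammonia-lyases, which open the other route, were split. PAL1 stood at 0.204% and PAL2 at 0.278%, whereas PAL4 stood at 8.42% and PAL3 at 14.8%.

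In PAL4 (AT3G10340, chromosome 3, 3203988 to 3208135) the 6 CpG-dense windows stood at 0.0297, 59.5, 0.331, 0.0811, 0.597 and 6.64% along the chromosome. One window therefore carried most of the methylated calls, and the window next to it, which was not CpG-dense, stood at 78.1%. In PAL3 (AT5G04230, chromosome 5, 1160569 to 1163957) the 4 CpG-dense windows stood at 21.0, 43.0, 1.89 and 0.0972%.

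Among regulators and receptors, NPR1 (AT1G64280), a receptor of salicylic acid, had one CpG-dense window at 40.1% (interval 38.1 to 42.1%) and another at 0.171%. The window between 23854001 and 23854500, beside the methylated one, stood at 70.2% with 36 cytosines. NPR3 stood at 3.07%. The activators of ICS1 were SARD1 at 0.316% and CBP60G at 5.80%, of whose 3 CpG-dense windows 1 stood at 24.8%. PAD4 and SAG101, the partners of the immune regulator EDS1, stood at 0.443 and 0.283%, and FMO1, which makes the mobile signal N-hydroxypipecolic acid, at 0.172%. SKP1A (AT1G75950, SKP1 in RefSeq), a core subunit of SCF ubiquitin ligases, had 2 methylated of 2878 calls in the 1 CpG-dense window of its body (0.0695%). That level does not describe the promoter of SKP1A, where the paper reports reduced methylation after SA-CNPs. The marker genes PR1, PR5 and PR2 (BGL2 in RefSeq) stood at 0.205, 0.395 and 7.75%.

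**Figure D5:**
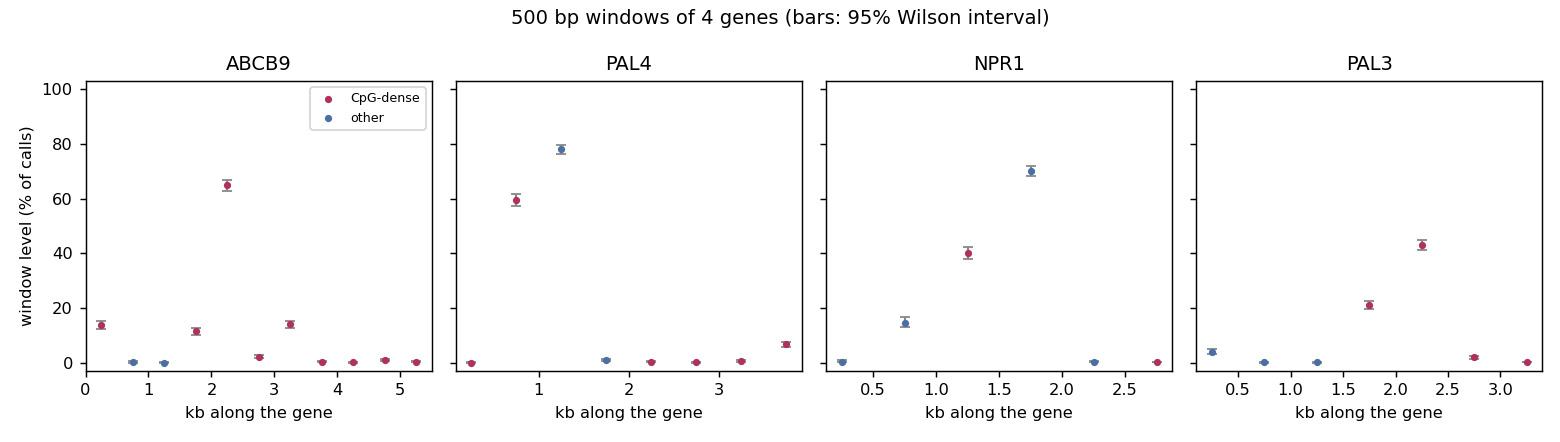
Methylation level (vertical axis, percent of calls, with 95% Wilson intervals) of each 500 bp window along ABCB9, PAL4, NPR1 and PAL3 (horizontal axis, kb), for CpG-dense windows (red) and other windows (blue). Each gene has methylated windows in one portion, up to 64.8% in ABCB9 and 59.5% in PAL4 among CpG-dense windows, and CpG-dense windows below 1% in another.

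Of 14 genes of DNA methylation and demethylation and of loci known to be silenced by it, 7 held a CpG-dense window (50%, near the 47.0% of all protein-coding genes), 1 each. Of their windows 4.76% were CpG-dense, beside 13.8% over all protein-coding genes. The levels ran between 0.0463% in DRM1 and 1.32% in IBM1. MET1 itself stood at 0.167%, the chromomethylase CMT2 at 0.559%, the glycosylase DML2 at 0.866% and the chromatin remodeller DDM1 (CHR1 in RefSeq) at 0.489%. SDC, an F-box gene silenced by methylation in leaves, stood at 0.626% in its CpG-dense window. Only windows of which a gene covers at least 250 bases count for it, so this level does not describe the DNA beside SDC. CMT3, DRM2, ROS1 (DML1 in RefSeq), DME, DML3, FWA and QQS held no CpG-dense window.

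Of the other gene families, ERF, DREB and CBF factors, which bind the GCC box or the dehydration element, were densest. A CpG-dense window was held by 30 of 37 (81.1%, beside 47.0% of all protein-coding genes), and 42.7% of their windows were CpG-dense, beside 13.8%. All 30 were under 25%, beside 92.1% of all such genes, with a median of 0.209%, beside 0.352%. ERF8 (AT1G53170) had the fullest window, with 110 cytosines and a level of 0.0943%. ERF14 had the highest level of these, 15.4%. The list, taken by symbol and synonym, also caught NAP57, a gene that is no ERF factor. Core histones, which package the DNA, followed with 21 of 29 genes (72.4%, beside 47.0%) and 34.4% of their windows, beside 13.8%. All 21 were under 25%, beside 92.1% of all protein-coding genes with a CpG-dense window. Their levels lay between 0 and 0.732%, with a median of 0.238%, beside 0.352%. Of 72 WRKY factors, regulators of defence and senescence, 31 held a CpG-dense window (43.1%, near the 47.0% of all protein-coding genes), with a median of 0.316%. WRKY19, with 44.8% over one window at 0% and another at 92.1%, and WRKY34, with 27.7%, were the only 2 of the 31 above 25%. This share is near that of all protein-coding genes with a CpG-dense window, where it was 1008 of 12720 at 25% or more. Of 79 SAUR genes that hold a window, 20 (25.3%, beside 47.0%) held a CpG-dense one, with a median of 0.219% and a highest level of 7.78%. Of 56 genes taken as ribosomal proteins by their symbol, 20 (35.7%, beside 47.0%) did so, with a median of 0.140% and a highest of 1.13%, but this list also caught the immune receptor genes RPS2 (AT4G26090) and RPS4 (AT5G45250). None of the 4 annotated ribosomal RNA genes of the nuclear chromosomes held a CpG-dense window, since they lie in the stretches left out.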

How the data were processed

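Genomic DNA of plant tissue labelled as leaf was made into enzymatic methyl-seq libraries. The authors aligned the reads with Bismark to TAIR10.1, kept unique reads without duplicates and deposited counts of methylated and unmethylated reads per CpG cytosine in 1 pooled table. Enzymatic conversion does not tell 5-methylcytosine from 5-hydroxymethylcytosine, and unconverted cytosines count as methylated. No normalisation was applied.

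Windows, classes and levels were computed in Python 3.11.15 with numpy 2.4.6, pandas 2.3.3 and scipy 1.17.1, drawn with matplotlib 3.10.9 and tested on simulated data. Gene classes came from RefSeq (TAIR10.1). A level is methylated calls over all calls, with a Wilson interval of 95%. Windows of 1 table are not replicates, so no p was computed. A count of 0 methylated calls was given the upper limit of 3 calls.

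The text names the 3 densest windows per class, the 5 longest runs, the 5 protein-coding genes and 5 pseudogenes with most CpG-dense windows, the 3 highest and 3 lowest protein-coding genes with at least 2, and the members of the lists of salicylic acid defence and DNA methylation. Other members of gene families, and the stretches printed (promoter sequences were not used here), were chosen after their values were seen. The windows and gene lists were chosen with earlier results of these data known. Alternatives were other limits of cytosines, window lengths and positions, coverage, depth and chromosome regions.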

Additional observations from a re-analysis of the deposited data

How the results depend on the processing

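The level of CpG-dense windows (23.8%) and its difference from other windows (-2.99 points) kept their direction under the alternatives listed here, but their size moved. The difference turned in the pseudogene-rich bins (7.52 points) and, by little, on chromosome 2 (30.33%, against 30.28%) and chromosome 5 (25.51%, against 25.38%). With at least 30 cytosines, 58109 windows had a level of 24.7% and a difference of -2.38 points, with 14105 at 75% or more. With at least 50, the values were 12134, 21.1%, -5.65 points and 3137. Windows of 250 bp gave 68803, 24.5%, -2.37 points and 18241, and windows of 1000 bp gave 9286, 25.7%, -0.406 points and 2499. Windows shifted by 250 bp gave 23.5% and -3.21 points, a minimum of 10 reads 23.72%, coverage of 90% of the cytosines 23.6% and -3.06 points, and the mean of cytosine levels 25.8% and -2.10 points. Without windows of excess depth the values were 22.3% and -3.70 points, with the left-out stretches kept in 25.9% and -0.884 points, and on the arms alone 11.7%, -7.54 points and 2396 windows at 75% or more. At 50 to 60 reads, a band chosen after seeing the data, 12422 windows had 12.5% and -19.5 points, with 1452 at 75% or more. In that band the class difference reversed in pseudogenes (-11.1 points) and in other RNA genes (-0.0562 points). Over this band and the other 3 alternatives run by class, 18 of 20 class differences kept their sign. At 30 to 40 reads, a band outside that count, the difference in protein-coding genes turned as well (12.4 points). The cause was not tested. No paired analysis was possible because the values come from a single pool without replicates. Depth limits the low levels, since at 1 window's depth a level below about 0.1% rests on a few calls.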

Other observations

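The 2 stretches left out of the windows were read far more deeply than the rest of the nuclear genome. The 13 windows of chromosome 2 that met the limit of 40 cytosines had a level of 33.5% at a median depth of 1595 reads, and the 23 windows of chromosome 3 had 35.5% at 7397 reads. Of the 600 windows with enough listed cytosines but too little coverage, 232 lay in pseudogenes and 172 in protein-coding genes, and 378 lay in pseudogene-rich bins, and the levels given describe the covered windows alone. The deepest CpG-dense window, an intergenic one on chromosome 5 from 11185501 to 11186000, stood at 85.7% at 12792 reads. Of the 4 protein-coding windows of excess depth, those of AT2G16586 and AT5G10340 stood at 40.7 and 40.5%, at 1875 and 1433 reads.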
